A study of Mus musculus with 32 samples.

Results

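Mouse embryonic fibroblasts on their way to induced pluripotent cells were compared at day 9 and day 6 of reprogramming in serum medium. All libraries labelled with that medium and one of those days were taken, 2 of day 9 and 2 of day 6, out of 32 in the series, and every gene with enough counts was tested. The assay was droplet single-cell RNA sequencing of transcript 3' ends. Its unit is the unique molecular identifier (UMI), a tag that counts each captured transcript once. Barcodes on the authors' list of irradiated feeder fibroblasts were dropped, which left 1253 cells of 7650 in the series, and UMIs were summed per library. The day 9 and day 6 groups had in common the starting fibroblasts, irradiated feeders, a stem cell medium with 15% fetal bovine serum and leukemia inhibitory factor, and doxycycline at 2 µg/mL. Per the labels they received none of the small molecules used elsewhere in the series, among them ascorbic acid and SGC0946. Which factors doxycycline induced is not given in the sources used here, so ectopic and endogenous transcripts of a factor such as Klf4 or Myc cannot be told apart. Day 3 and day 12 of the same medium, untreated embryonic fibroblasts (MEF) and V6.5 embryonic stem cells (ESC) gave points of reference. Whether libraries A and B are separate cultures is not stated, and p-values therefore reflect library-to-library spread that may be technical.

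During reprogramming, fibroblasts are known to lose mesenchymal and contractile gene expression early. Cells that advance gain epithelial junction genes, in a mesenchymal-to-epithelial transition, and last the endogenous pluripotency network around Nanog, Esrrb and Sall4. Most cells do not get that far, so a culture in serum is a mixture. A sum over a library reports that mixture, and in it more cells of a type and more RNA per cell of that type cannot be told apart.

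The libraries held 325 and 371 cells and 2200886 and 2496288 UMIs at day 9, against 360 and 197 cells and 3690522 and 2357948 UMIs at day 6. Cells were shallower at day 9, with medians of 5240 and 5831 UMIs per cell against 9134.5 and 10488 at day 6. Feeder-listed barcodes made up 1.52% and 1.33% of barcodes at day 9, against 7.46% and 7.08% at day 6. Libraries of a day correlated across genes at 0.976 (day 9) and 0.983 (day 6) in log2 CPM (UMI counts scaled to a common library total) and differed by more than counting noise. Both day 9 libraries lay above the other 30 libraries of the series in 339 of 7695 genes with a mean of at least 20 CPM and below them in 194, against 95 and 87 genes for day 6. The 9 fibroblast markers were all present and summed to 3992 and 3647 CPM at day 9 against 5074 and 4815 CPM at day 6, with 10487 and 9500 CPM in MEF. The 9 pluripotent markers summed to 14.5 and 9.82 CPM at day 9 against 3.63 and 0.879 CPM at day 6, with 4372 and 4253 CPM in ESC, and Dppa5a and Tdgf1 were at 0 at both days.

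Between day 9 and day 6, 648 genes rose and 591 fell out of 13229 tested, which is 4.9% and 4.47% of them (edgeR's quasi-likelihood test, Benjamini-Hochberg adjusted p under 0.05). The median log2 fold change over all genes tested was 0. DESeq2 called 406 genes higher and 407 lower, and 794 of its calls were among the 1239 of edgeR, with the same sign. Leaving out any of the 4 libraries lowered the counts to between 229 and 341 higher and between 282 and 331 lower. Of the 648 genes that rose, 418 (64.5%) were higher in both ESC libraries than in both MEF libraries and 155 (23.9%) were lower. Of the 591 that fell, 103 (17.4%) were higher in ESC and 445 (75.3%) lower, where all genes tested gave 43.5% and 42.7%. The calls also differed by transcript length. Among the 4391 genes of shortest exonic length (70 to 3260 bases) 346 rose and 153 fell, and among the 4388 longest (5812 to 123179 bases) 132 rose and 241 fell. With a length trend fitted in each library as an offset, 575 rose and 614 fell, and 1077 of the 1239 calls were made in both fits. The part of cell depth in these calls was not tested.

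**Figure D1:**
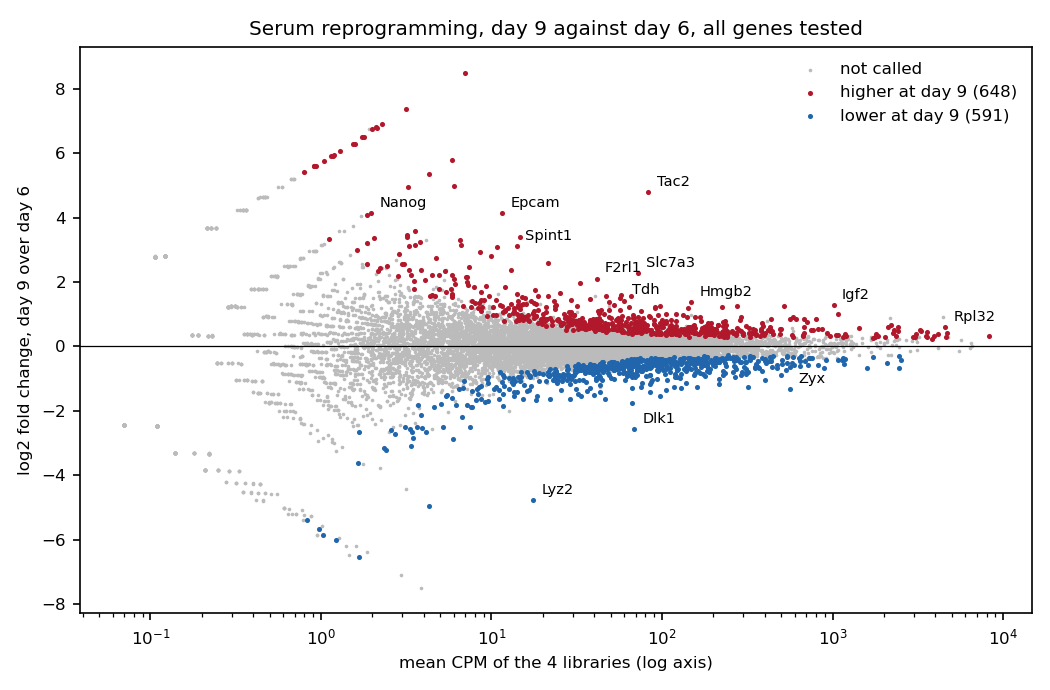
Log2 fold change of day 9 over day 6 for the genes tested that had a UMI in the 4 libraries, against their mean CPM (log axis), with genes called higher or lower in colour. The calls lie on both sides (648 higher, 591 lower), Tac2 at 4.79 and Dlk1 at -2.56.

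Among called genes that reached 50 CPM, the steepest rise was that of Tac2, the precursor of the neuropeptide neurokinin B (mm10, chr10:127724478-127731768, plus strand). Tac2 had 174 and 148 CPM at day 9 against 6.42 and 4.84 CPM at day 6. The days lay far apart, with a log2 fold change of 4.79 ± 0.31 (SE) and an adjusted p of 1.4e-10 by edgeR. The 2 MEF libraries had 0 and 0.13 CPM of it and the 2 ESC libraries had none. Slc7a3, a transporter of cationic amino acids, had 128 and 113 CPM at day 9 against 27.4 and 21.1 CPM at day 6. F2rl1, the protease-activated receptor PAR2, had 66.9 and 67.5 CPM at day 9 against 16.7 and 14.1 CPM at day 6. Transporter and receptor thus stood 4.86- and 4.29-fold higher at day 9, and both calls held in every setting tried. Dmrtc2, a DM-domain gene known from the germline, had 48.5 and 57.7 CPM at day 9 against 15.1 and 11.4 CPM at day 6. The adhesion gene Cadm1 rose 3-fold, with an adjusted p of 0.069 without the day 6 library A. Jam2, a junctional adhesion molecule, rose 2.79-fold.

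Epithelial and pluripotency genes stood among the same 12 genes. Ehf, an epithelial ETS factor, had 75.7 and 64.5 CPM at day 9 against 23.4 and 24.2 CPM at day 6. Spint2, a membrane-bound inhibitor of serine proteases, had 77.6 and 64.1 CPM at day 9 against 26.5 and 27.7 CPM at day 6 (adjusted p = 9.6e-06 by edgeR). Tdh, the threonine dehydrogenase on which mouse embryonic stem cells depend, had 91.7 and 82 CPM at day 9 against 31.8 and 33 CPM at day 6. These rises were of like size, 2.94-, 2.61- and 2.68-fold. That their libraries do not overlap was a condition of their choice, which 6608 of the 13229 genes tested (50%) meet. Hmgb2, a DNA-bending protein of dividing cells, had 238 and 191 CPM at day 9 against 82.3 and 82.7 CPM at day 6. Igfbp5, which binds insulin-like growth factors, rose 2.84-fold, with an adjusted p of 0.067 without the day 6 library A. Mmp3, a secreted matrix protease, had 120.3 and 76.9 CPM at day 9 against 31.8 and 34.3 CPM at day 6 (adjusted p = 0.017). The Mmp3 call rested on the removal of feeder cells, since with the listed cells kept the log2 fold change was -0.04. It was also lost by DESeq2 (adjusted p = 0.68), without the day 9 library A (0.19) and without either day 6 library (0.14 and 0.089).

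**Figure D2:**
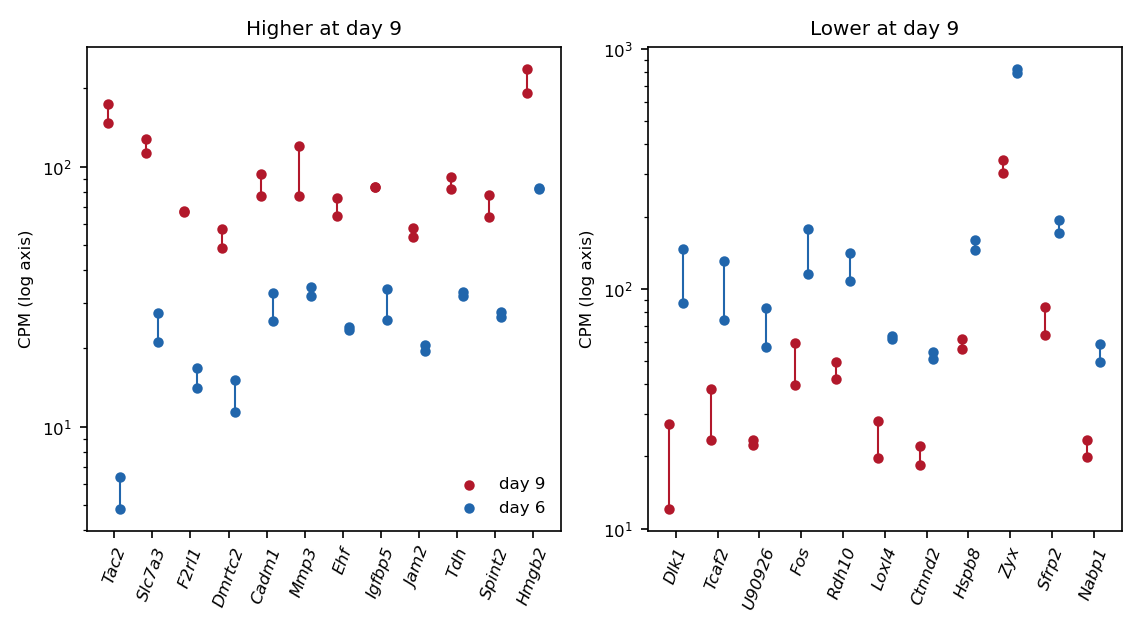
CPM (log axis) in each library for the 12 genes with the steepest rise and 11 of the 12 with the steepest fall among called genes that reached 50 CPM, each point a library. The days do not overlap in any of the 23 genes, as their choice required.

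The steepest fall was that of Dlk1, an imprinted gene for a Notch-like membrane protein of embryonic mesenchyme and preadipocytes (chr12:109452823-109463336, plus strand). Dlk1 had 12.1 and 27.3 CPM at day 9 against 147 and 87.1 CPM at day 6. Its log2 fold change was -2.56 ± 0.32 (adjusted p = 6.3e-06 by edgeR). Tcaf2, a partner of the TRPM8 channel, had 38.3 and 23.5 CPM at day 9 against 131 and 73.9 CPM at day 6. Zyx, the focal adhesion protein zyxin, was the most abundant of the genes shown, with 303 and 345 CPM at day 9 against 825 and 793 CPM at day 6. Rdh10, which makes the precursor of retinoic acid, had 42.2 and 49.5 CPM at day 9 against 108 and 141 CPM at day 6. Hspb8, a small heat shock protein, had 56.3 and 61.9 CPM at day 9 against 145 and 159.6 CPM at day 6. Zyx, Rdh10 and Hspb8 fell 2.5-, 2.68- and 2.56-fold, and their calls held in every setting tried. The collagen cross-linking enzyme gene Loxl4, the delta-catenin gene Ctnnd2, the Wnt-binding Sfrp2 and the DNA-binding Nabp1 fell between 2.46- and 2.64-fold, and U90926 fell 3.1-fold.

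Part of the epithelial genes rose. Of 33 tested members of a list of junction, keratin and epithelial regulator genes, 12 rose and 1 fell, where 4.9% and 4.47% of all genes did, and their median log2 fold change was 1.40 against 0. With 5 members that had no UMI at day 6 set at their lower bound and 9 members at or under 3 UMIs on both days left out, the median was 1.60. The median weighs low and abundant members alike. The list as a sum moved far less, with 910 and 815 CPM at day 9 against 716 and 776 CPM at day 6. Epcam, an adhesion molecule of epithelia and of pluripotent cells (chr17:87635979-87651129, plus strand), had 26.7 and 17.1 CPM at day 9 against 1.4 and 0.879 CPM at day 6. That was 95 UMIs against 7, a log2 fold change of 4.14 ± 0.51 (adjusted p = 4.5e-06 by edgeR). Spint1, a relative of Spint2, had 26.7 and 23.9 CPM at day 9 against 3.35 and 2.2 CPM at day 6, 8.61-fold higher. The proximal promoters of Epcam and Spint2 are shown because both genes rose and because ZEB and SNAI repressors of epithelial genes bind E-boxes with the letters CACCTG, or on the other strand CAGGTG. They are the 250 bases before the start site in RefSeq (GRCm38.p6), chr17:87635729-87635978 on the plus strand and chr7:29281978-29282227 on the minus strand, with matches in capitals.
Epcam: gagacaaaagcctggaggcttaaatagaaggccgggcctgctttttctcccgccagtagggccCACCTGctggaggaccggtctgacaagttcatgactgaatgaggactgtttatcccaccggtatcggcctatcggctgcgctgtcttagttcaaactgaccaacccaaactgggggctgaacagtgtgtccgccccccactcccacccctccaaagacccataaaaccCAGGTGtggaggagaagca
Spint2: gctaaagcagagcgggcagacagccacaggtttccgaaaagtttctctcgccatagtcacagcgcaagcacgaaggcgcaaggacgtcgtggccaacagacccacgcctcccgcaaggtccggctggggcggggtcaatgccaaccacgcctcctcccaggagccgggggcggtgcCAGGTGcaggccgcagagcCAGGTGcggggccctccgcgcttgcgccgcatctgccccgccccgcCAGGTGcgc
The Epcam stretch held 2 matches, 187 and 19 bases before the start, and that of Spint2 held 3, at 74, 55 and 9 bases. Of the 12 epithelial genes that rose, 7 had a promoter in the set used and 4 of these held the letters. Of all 32851 promoters 17.2% hold them, and of the 10053 tested genes with a promoter 18.5% do. A match is a description and not a bound site. Of the repressors themselves, Zeb2 had 18.4 and 22.2 CPM at day 9 against 41.6 and 30.3 CPM at day 6 (adjusted p = 0.009 by edgeR), and Zeb1 had 67.9 and 53 CPM against 65.6 and 56.7 CPM (adjusted p = 0.95). Snai1 had 11.6 and 7.69 CPM at day 9 against 17 and 14.5 CPM at day 6 (adjusted p = 0.17 by edgeR), and Snai2 had 32 and 25.2 CPM at day 9 against 33.5 and 20.2 CPM at day 6 (adjusted p = 0.97 by edgeR).

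Several epithelial calls rested on few UMIs. The splicing regulator Esrp1 had 11 and 2 UMIs at day 9, the tight junction genes Cldn4 and Cldn7 had 13 and 0 and 9 and 1, and the regulators Ovol2 and Grhl2 had 5 and 5 and 6 and 2. None of these had a UMI at day 6, so that Esrp1 and Cldn4 were at least 5.76-fold higher, Cldn7 and Ovol2 at least 4.43-fold and Grhl2 at least 3.55-fold, with the floor at 3 UMIs over both libraries. St14, the protease matriptase, had 9.7 and 7.69 CPM at day 9 against 1.68 and 4.4 CPM at day 6. Dsp, desmoplakin of desmosomes, had 36.4 and 12.8 CPM at day 9 against 8.09 and 10.6 CPM at day 6. Without the day 9 library A 4 members were called higher, without B 10, and without the day 6 libraries A and B 4 and 5, and a fit of the compared groups alone called 5. Cdh1, E-cadherin, had 34.4 and 17.9 CPM at day 9 against 14.8 and 12.8 CPM at day 6 (adjusted p = 0.021), and its log2 fold change was 0.35 (adjusted p = 0.57 by edgeR) without the day 9 library A. The call was also lost in the fit of the compared groups alone (0.073) and without either day 6 library (0.091 and 0.12). Krt19, a simple-epithelial keratin, went the other way, with 61.1 and 76.9 CPM at day 9 against 164 and 169.7 CPM at day 6 (adjusted p = 0.0006). Krt8 had 14.1 and 0.854 CPM at day 9 against 0.279 and 1.32 CPM at day 6 and was not called (adjusted p = 0.16 by edgeR). Of 11 tested genes of stratified epidermis 2 rose. Ly6d had 52 UMIs at day 9 against 1 at day 6, a ratio of 69.2 (95% exact interval 11.9 to 2784), and Krt10 had 15.5 and 20.5 CPM against 9.49 and 7.92 CPM, a call lost in 6 settings.

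The pluripotency network was near its floor. Of 47 tested members 7 rose and 1 fell, where 4.9% and 4.47% of all genes tested did. Their median log2 fold change was 0.43, or 0.51 with bounds. With a library left out 3 to 6 were called higher. The 7 were Epcam, Tdh, Nr0b1, L1td1, Utf1, Nanog and Phc1. Nanog, the homeobox factor of naive pluripotency, had 11 and 5 UMIs at day 9 against 0 and 1 at day 6, a ratio of 21.3 (95% exact interval 3.31 to 893, adjusted p = 0.028 by edgeR). Its call was lost without the day 9 library A (adjusted p = 0.25 by edgeR) and without either day 6 library (0.27 and 0.058). Nr0b1, the nuclear receptor Dax1, had 7.76 and 5.55 CPM at day 9 against 0.837 and 0 CPM at day 6, and its call held in every setting. L1td1, an RNA-binding protein of pluripotent cells, was well expressed at both days, with 105 and 74.3 CPM at day 9 against 40.8 and 51 CPM at day 6. Phc1, a Polycomb subunit, had 36.4 and 34.2 CPM at day 9 against 25.1 and 24.2 CPM at day 6, and Utf1, a chromatin protein, had 8 and 3 UMIs at day 9 and none at day 6, at least 4.88-fold higher. Sall4 had 2.42 and 2.99 CPM at day 9 against 1.12 and 0 CPM at day 6 (adjusted p = 0.16), and Esrrb had 6 UMIs at day 9 and none at day 6 (adjusted p = 0.072 by edgeR). Pou5f1 had 0 and 0.854 CPM at day 9 against 0.279 and 0 CPM at day 6, so that the core of the network was barely detected at either day. Klf4 went down, with 50.4 and 41.9 CPM at day 9 against 83.2 and 83.1 CPM at day 6 (adjusted p = 0.0028, and 0.061 without the day 9 library B).

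Fibroblast matrix genes fell in part, where 4.47% of all genes tested fell and 4.9% rose. Of 38 members 8 fell and 1 rose, with a median log2 fold change of -0.09, and 2 to 7 were lower with a library left out. Higher members numbered 7 in the fit of the compared groups alone and 4 with no filter on low counts. As a sum the list overlapped between the days, with 26525 and 22096 CPM at day 9 against 23805 and 24166 CPM at day 6. Fbn1, fibrillin of elastic microfibrils, had 466 and 426 CPM at day 9 against 715 and 657 CPM at day 6 (adjusted p = 8.1e-05 by edgeR). Thbs2, a matricellular thrombospondin, had 151 and 138 CPM at day 9 against 272 and 307 CPM at day 6. Col1a2, a chain of type I collagen, had 2018 and 1765 CPM at day 9 against 3155 and 2889 CPM at day 6. Its partner Col1a1 had 811 and 669 CPM at day 9 against 613 and 568 CPM at day 6 (adjusted p = 0.44 by edgeR) and was called higher in the fit of the compared groups alone (0.049). Fbln2, a fibulin, fell 1.94-fold, with an adjusted p of 0.089 by DESeq2. Aspn, asporin, was the member that rose, with 127 and 128 CPM against 47.2 and 63.3 CPM, a call that DESeq2 did not make (adjusted p = 0.64). The Aspn call was also lost with the listed feeder cells kept (adjusted p = 0.068 by edgeR), without either day 9 library and without the day 6 library A. Postn, periostin, had 84.4 and 38 CPM at day 9 against 47.7 and 42.2 CPM at day 6, and the days overlapped.

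Of 32 mesenchymal regulators and surface genes 5 fell and 1 rose, with 2 to 4 lower when a library was left out. Twist2, a helix-loop-helix factor of mesenchyme, had 12.1 and 9.4 CPM at day 9 against 31.8 and 35.2 CPM at day 6 (adjusted p = 0.00043 by edgeR), whereas its relative Twist1 had 131 and 157 CPM against 156 and 157 CPM (adjusted p = 0.77). Thy1, a surface glycoprotein of fibroblasts, had 303 and 274 CPM at day 9 against 497 and 473 CPM at day 6 (adjusted p = 0.0029, and 0.12 with the listed feeder cells kept). Tbx5, a T-box factor of the forelimb, had 3.4 and 2.99 CPM at day 9 against 12 and 10.6 CPM at day 6. Prrx1, a homeobox factor of limb mesenchyme, fell 1.42-fold. The Prrx1 call was lost with the listed feeder cells kept, without the day 9 library A and without the day 6 library B. Foxd1 rose, with 29.1 and 17.1 CPM against 10.9 and 3.52 CPM, a call lost without the day 9 library A and without the day 6 library B. Of 27 contractile and YAP-target genes 4 fell (Zyx, Tpm4, Axl and Cyr61) and 2 rose, with 2 lower when any library was left out, 7 with no filter on low counts and 9 in the fit of the compared groups alone. Beside both of these lists, 4.47% of all genes tested fell and 4.9% rose. Tpm4, a tropomyosin, had 267 and 286 CPM at day 9 against 410.3 and 442 CPM at day 6. Actg2, smooth muscle gamma-actin, rose instead, with 361 and 401 CPM at day 9 against 175 and 231 CPM at day 6. The Actg2 call was lost without the day 6 library A. Ctgf, a YAP target, had 738 and 388 CPM at day 9 against 293 and 325 CPM at day 6. The day 9 library A thus carried most of the rise, and without it the log2 fold change was 0.32 and the call was lost. The Ctgf call was also lost by DESeq2 (adjusted p = 0.16), with the listed feeder cells kept and without either day 6 library.

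Part of the immediate-early genes, which cells transcribe within minutes of a growth factor or stress, fell at day 9. Among all genes tested 4.47% fell and 4.9% rose. Of 32 members 10 fell and 1 rose, and the median log2 fold change was -0.43, with 6 to 8 lower when a library was left out. Fos, a subunit of the AP-1 factor, had 39.8 and 59.4 CPM at day 9 against 116 and 177 CPM at day 6 (adjusted p = 0.00058 by edgeR). Junb, a partner of Fos, had 80.5 and 87.1 CPM at day 9 against 169 and 156 CPM at day 6, and the orphan receptor Nr4a1 had 77.6 and 85.4 CPM against 155 and 159.6 CPM. Fosl2, another AP-1 subunit, had 60.1 and 48.3 CPM at day 9 against 108 and 127 CPM at day 6. The stress factor Atf3 was low at both days, with 4.85 and 1.71 CPM at day 9 against 10.3 and 14.1 CPM at day 6. Ier2, Ier3, Zfp36, Egr3 and Myc made up the 10, Myc with 125 and 169 CPM against 191 and 229 CPM. Jun had 43.2 and 47.8 CPM at day 9 against 58.9 and 69.9 CPM at day 6 and was not called (adjusted p = 0.11 by edgeR). Etv4, an ETS factor downstream of ERK, rose, with 32.5 and 47.8 CPM against 21.2 and 19.8 CPM, a call lost in 4 settings. The promoters of Fos and Atf3 are shown because both genes fell and both hold the core of the cyclic AMP response element, TGACGT, or on the other strand ACGTCA. The RefSeq stretches are chr12:85473640-85473889 on the plus strand and chr1:191183334-191183583 on the minus strand (GRCm38.p6), with the match in capitals.
Fos: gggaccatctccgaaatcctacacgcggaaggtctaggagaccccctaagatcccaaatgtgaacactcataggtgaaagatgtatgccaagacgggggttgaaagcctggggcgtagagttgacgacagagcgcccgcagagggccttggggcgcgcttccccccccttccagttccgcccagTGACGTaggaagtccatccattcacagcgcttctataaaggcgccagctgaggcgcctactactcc
Atf3: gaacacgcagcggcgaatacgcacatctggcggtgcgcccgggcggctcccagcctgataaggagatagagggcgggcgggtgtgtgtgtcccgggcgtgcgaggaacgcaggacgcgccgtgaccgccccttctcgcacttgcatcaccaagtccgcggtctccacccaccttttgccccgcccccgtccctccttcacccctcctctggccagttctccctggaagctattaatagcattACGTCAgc
The match lay 66 bases before the start in Fos and 8 bases before it in Atf3. Of the 10 members that fell, 7 had a promoter in the table and 2 of these held the core, which 6.47% of all promoters and 11.4% of those of tested genes hold.

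Genes of the TGF-beta and BMP pathways were split, 6 of 25 lower and 3 higher, where 4.47% and 4.9% of all genes tested were. Id1 and Id3, direct BMP targets, both fell, Id1 with 237 and 239 CPM at day 9 against 347 and 428 CPM at day 6 and Id3 with 720.1 and 649 CPM at day 9 against 1108 and 1083 CPM at day 6. The ligand Bmp4 rose, with 105 and 74.3 CPM at day 9 against 39.6 and 36.1 CPM at day 6 (adjusted p = 0.0015, and 0.09 with the listed feeder cells kept). Ltbp1, which stores latent TGF-beta, had 78.6 and 62.4 CPM at day 9 against 146 and 140.3 CPM at day 6, and the BMP inhibitor Smad6 and the activin subunit Inhba were called lower too. With the listed feeder cells kept no member was called higher, and with a library left out 3 to 6 were lower and 0 to 3 higher. Of 21 Wnt-pathway genes 4 fell, Sfrp1, Sfrp2, Cd44 and Ccnd1, and none rose, by edgeR or by DESeq2, with 4 members in all at an unadjusted p under 0.05. With a library left out 1 to 3 were lower, and without the day 6 library A 1 was called higher. Sfrp2, a secreted Wnt-binding protein, had 84.4 and 64.5 CPM at day 9 against 193 and 171 CPM at day 6.

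Secreted inflammatory genes were lower in 8 of 40 members and higher in 2, with 5 lower by DESeq2 and 3 to 6 with a library left out. Ptx3, a soluble pattern recognition protein, had 47 and 65.8 CPM at day 9 against 109 and 128 CPM at day 6 (adjusted p = 0.00027 by edgeR). The chemokine genes Ccl7 and Cxcl14 fell 1.62- and 1.73-fold, with both calls made in every setting. The 2 higher members were Mmp3 and the chemokine Ccl5, 38 of whose 39 day 9 UMIs were in library B. DESeq2 called neither. Of 41 interferon-response genes Trim25 fell, with 51.9 and 62.4 CPM against 99.6 and 91.9 CPM, and none rose by edgeR or DESeq2, 3 in all being at an unadjusted p under 0.05. Higher members numbered 2 with no filter on low counts, 1 in the fit of the compared groups alone and 1 without the day 9 library A.

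Markers of other cell types differed in level. For the counts below, 4.9% of all genes tested rose and 4.47% fell. The 6 neural markers summed to 546 and 546 CPM at day 9 against 608 and 647 CPM at day 6, nearly all of it Stmn2, with 533 and 531 CPM at day 9 against 589 and 631 CPM at day 6 (adjusted p = 0.42 by edgeR), and Sox1, Pax6 and Elavl3 were at 0 at both days. The 7 endothelial markers summed to 93.6 and 77.7 CPM at day 9 against 107 and 99.8 CPM at day 6. The 10 macrophage markers summed to 2.91 and 3.84 CPM at day 9 against 4.47 and 131 CPM at day 6, with Ptprc, Adgre1, C1qa, C1qb and C1qc at 0 at day 9. Of 16 tested macrophage and blood genes Lyz2, lysozyme, was the one called, with 0.97 and 1.28 CPM at day 9 against 2.23 and 66 CPM at day 6. Of the 150 Lyz2 UMIs in the day 6 library B 147 lay in a single cell, and without that library the adjusted p of 0.045 became 0.89. Among 11 endothelial genes Cd34, which fibroblasts also carry, fell, with 477 and 543 CPM at day 9 against 742 and 810.4 CPM at day 6, and no other was called by edgeR or DESeq2 (3 at an unadjusted p under 0.05). Of 8 skeletal muscle genes none was called by edgeR or DESeq2 and none had an unadjusted p under 0.05. Of 6 tested adipogenic genes 3 fell (1 to 2 with a library left out), Lpl, Scd1 and Plin2, genes of lipid uptake, desaturation and storage, Lpl with 25.2 and 20.9 CPM at day 9 against 53.6 and 43.1 CPM at day 6. Of 25 neural and neuropeptide genes Tac2 and Uchl1 rose and Nes and Gap43 fell, Nes, the filament nestin, with 21.8 and 17.9 CPM at day 9 against 37.4 and 46.2 CPM at day 6. Uchl1 was lost in 6 settings, each library left out among them, and Gap43 without either library A (adjusted p of 0.17 without that of day 9 and 0.6 without that of day 6).

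A few genes of DNA replication rose by small steps. Over all genes tested 4.9% rose and 4.47% fell, and the higher calls of the G2 and mitosis list and of the p53 list were near that first share. Of 54 S-phase genes 7 rose and none fell (6 and none by DESeq2), with a median log2 fold change of 0.13. Nasp, a histone chaperone, had 143 and 125 CPM at day 9 against 78.7 and 74.8 CPM at day 6 (adjusted p = 0.00047 by edgeR). Prim1, the primase, rose 2.11-fold, and Pcna, the replication clamp, had 142 and 123 CPM at day 9 against 80.9 and 79.2 CPM at day 6. With a library left out 3 to 4 members were called. Of 63 genes of G2 and mitosis 3 rose (8 with the listed feeder cells kept and 5 in the fit of the compared groups alone), Hmgb2, Psrc1 and Pbk, and Ccnf, cyclin F, fell, with 15 and 15.4 CPM at day 9 against 30.4 and 34.3 CPM at day 6. Mki67, a general proliferation marker, had 47.5 and 48.3 CPM at day 9 against 58.6 and 61.1 CPM at day 6 and Top2a, a topoisomerase of dividing cells, had 189 and 175 CPM against 164 and 156 CPM, and neither was called. Of 35 p53 and senescence genes 2 rose and 2 fell, with 0 to 2 higher and 0 to 1 lower when a library was left out. Cdkn2a, whose products restrain reprogramming, had 199 and 179 CPM at day 9 against 125 and 111 CPM at day 6, a call lost without the day 9 library A and without the day 6 library B, and the apoptosis effector Bax rose 1.55-fold. Cdkn1a, the cell cycle inhibitor p21, fell 1.27-fold, with 557 and 557 CPM against 669.5 and 749 CPM (adjusted p = 0.025), a call lost in 4 settings, and Ccnd1, cyclin D1, fell 1.3-fold, a call lost in 3 settings.

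Many ribosomal protein genes rose by small steps. Of 53 members 25 rose and none fell (27 and none by DESeq2), where 4.9% and 4.47% of all genes tested did. Their median log2 fold change was 0.26. The count was 13 with no filter on low counts, 17 with the length offset and 6 to 11 with a library left out. Rps9 had 3764 and 3841 CPM at day 9 against 2672 and 2686 CPM at day 6, 1.42-fold higher (adjusted p = 7.1e-05 by edgeR). Of 50 genes of oxidative phosphorylation 8 rose and none fell (7 and 1 by DESeq2), and 2 to 4 rose with a library left out, 5 with the length offset and 15 in the fit of the compared groups alone. Ndufb10, a subunit of complex I, had 215 and 202 CPM at day 9 against 138 and 140.3 CPM at day 6. Of 28 glycolysis and hypoxia genes 6 fell and 2 rose, but without the day 9 library A none was called either way. Pgk1, phosphoglycerate kinase, had 37.8 and 61.9 CPM at day 9 against 94.6 and 90.1 CPM at day 6, and Pkm, pyruvate kinase, had 702 and 867 CPM against 1083 and 1008 CPM. Other genes share at least 50% of the 31-base words of the last 500 bases of Rpl32, Rps7, Gapdh, Mif, Atp5o, Cd63, Igf2 and the pluripotent marker Dppa5a, so the counts of these are uncertain.

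**Figure D3:**
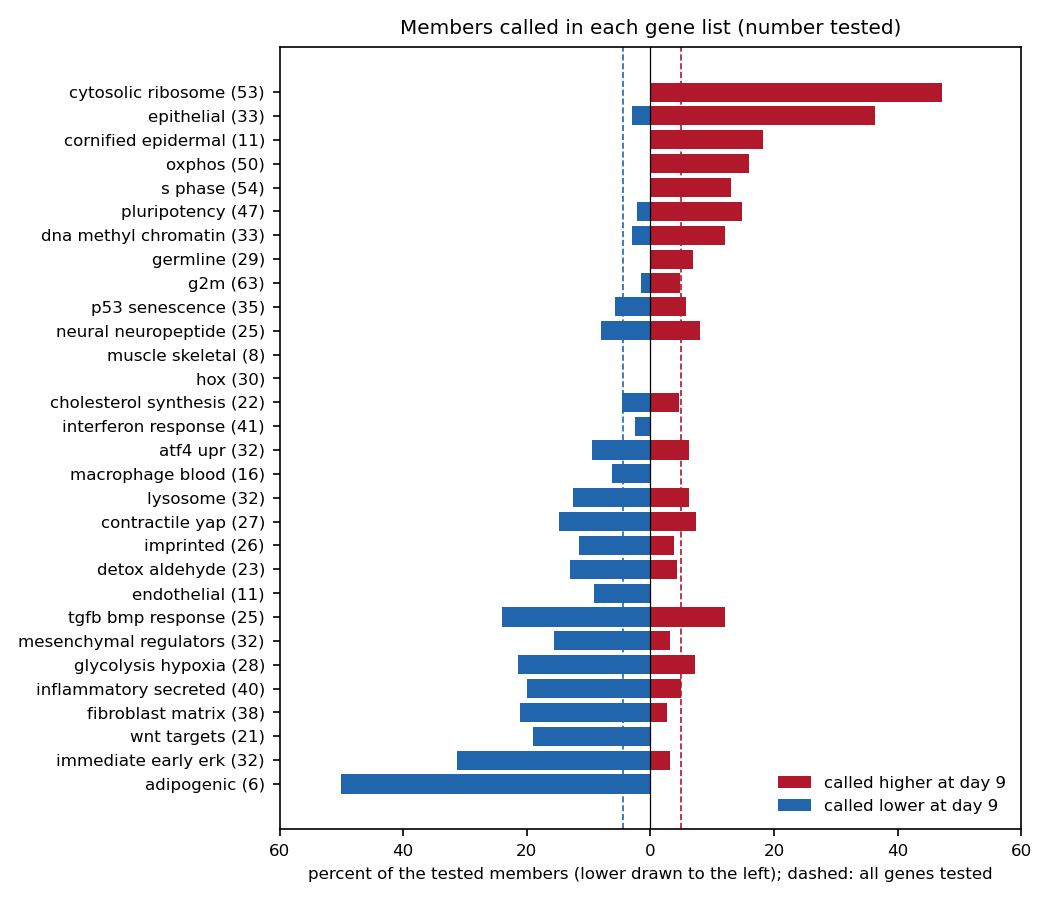
Percent of the tested members of each gene list called higher or lower at day 9 against day 6, with the number tested and the percent over all genes tested (4.9% and 4.47%) as lines. Ribosomal (25 of 53) and epithelial (12 of 33) lists reach farthest among the higher calls, and adipogenic (3 of 6) and immediate-early (10 of 32) lists among the lower.

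Other metabolic lists moved in few members, and with a library left out the lower calls numbered 1 to 2 for detoxifying, 1 to 4 for lysosomal and 0 to 2 for ATF4 and unfolded protein genes. Cyp1b1, a cytochrome P450 of steroid and retinoid metabolism, had 187 and 189 CPM at day 9 against 459 and 449 CPM at day 6 (adjusted p = 0.00025 by edgeR). Of 23 detoxifying genes 3 fell and 1 rose, where 4.47% and 4.9% of all genes tested did. Of 32 lysosomal genes 4 fell and 2 rose, Sqstm1, the autophagy receptor p62, with 353 and 374 CPM at day 9 against 571 and 594 CPM at day 6. Of 32 genes of the ATF4 and unfolded protein responses 3 fell and 2 rose, and none was called higher with any library left out. Nupr1, a stress-induced chromatin protein, was uneven, with 245 and 277 CPM at day 9 against 355 and 737 CPM at day 6, and its adjusted p was 0.38 without the day 6 library B. Idi1, an isomerase of cholesterol synthesis, rose on few UMIs, 23 at day 9 against 4 at day 6, a call lost without the day 9 library B and without either day 6 library.

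Of 26 imprinted growth regulators 1 rose and 3 fell, against 4.9% and 4.47% of all genes, with 6 lower under no filter on low counts and in the fit of the compared groups alone. Igf2, a fetal growth factor, had 1270.1 and 1602 CPM at day 9 against 636 and 551 CPM at day 6 (adjusted p = 0.033). That call was lost by DESeq2 (adjusted p = 0.38), with the listed feeder cells kept (0.051) and when each of the 4 libraries was left out in turn. H19, transcribed beside it, had 2338 and 3290.0 CPM at day 9 against 1684 and 1351 CPM at day 6 and was not called (adjusted p = 0.24 by edgeR). Dlk1, Plagl1 and Igf2r fell, Plagl1, a zinc-finger factor, with 127 and 97.4 CPM at day 9 against 211 and 186 CPM at day 6. Of 29 germline genes 2 were called, Tdrkh and Ddx4, the VASA helicase, which had 15 UMIs at day 9 and none at day 6, at least 6.65-fold higher. Ddx4 was lost with the listed feeder cells kept (adjusted p = 0.14) and without the day 6 library A, and Tdrkh in 8 settings, among them DESeq2 and each library left out. None of 30 Hox genes was called by edgeR or DESeq2 with all libraries, and 3 had an unadjusted p under 0.05, but Hoxa5 was called higher without the day 9 library A and Hoxc8 lower without the day 6 library A. Of 33 chromatin genes 4 rose and 1 fell, and 0 to 1 rose with a library left out. Hdac2, a histone deacetylase, had 234 and 237 CPM at day 9 against 160.2 and 163 CPM at day 6, and Hmga2, a DNA-bending protein, had 200.3 and 162 CPM against 286 and 214 CPM. Genes with no UMI on one side were called as well, 19 absent at day 6 and 5 absent at day 9. Among them, and singled out after their values were seen, the matrix gene Tnn had 48 and 11 UMIs at day 9 and none at day 6, at least 26.2-fold higher, and the estrogen receptor gene Esr1 had none at day 9 against 16 and 5 at day 6, at least 5.26-fold lower.

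The cells behind these sums differed from gene to gene. Each cell was thinned to 1000 UMIs so that depth was equal, which left out 12 and 6 shallower cells at day 9 and none at day 6. With 2 libraries a day no exact permutation test gives a p below 0.33, so shares are described with exact (Clopper-Pearson) 95% intervals, which cover counting error only. Tac2 was seen in 7.67% (4.97 to 11.2) and 7.4% (4.93 to 10.6) of cells at day 9, against 0.556% (0.067 to 1.99) and 1.02% (0.123 to 3.62) at day 6. At that depth no cell of 298 and 431 in MEF had a Tac2 UMI, where 3 counts of the total, the limit used here for a share of 0, allow 1.01% and 0.696% of cells with a UMI. Without thinning Tac2 was in 15.7% and 14.3% of cells at day 9, against 2.78% and 3.55% at day 6. Cells with a Tac2 UMI were thus more frequent at day 9 on both counts. The share that free RNA gives at day 9 was not measured. Epcam was in 1.6% and 1.1% of thinned cells at day 9 and in none of 360 and 197 at day 6, where 3 counts allow 0.833% and 1.52% of cells with a UMI at that depth, and without thinning in 4.92% and 3.77% of cells at day 9, against 1.39% and 1.02% at day 6. Thy1 was in 21.4% (17 to 26.4) and 16.4% (12.8 to 20.6) of cells at day 9, against 27.8% (23.2 to 32.7) and 23.9% (18.1 to 30.4) at day 6, and in no thinned ESC of 138 and 164. Its intervals overlapped between the days at this depth, except that the day 9 library B lay below the day 6 library A, and without thinning Thy1 was in 37.8% and 37.7% of cells at day 9, against 65.6% and 64% at day 6. Tdh was in 8.63% and 3.84% of cells at day 9, against 3.61% and 3.05% at day 6, with intervals that overlapped (5.76 to 12.3 and 2.11 to 6.35 at day 9, against 1.94 to 6.1 and 1.13 to 6.51 at day 6), and without thinning in 26.2% and 22.9% of cells at day 9, against 15% and 17.3% at day 6.

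**Figure D4:**
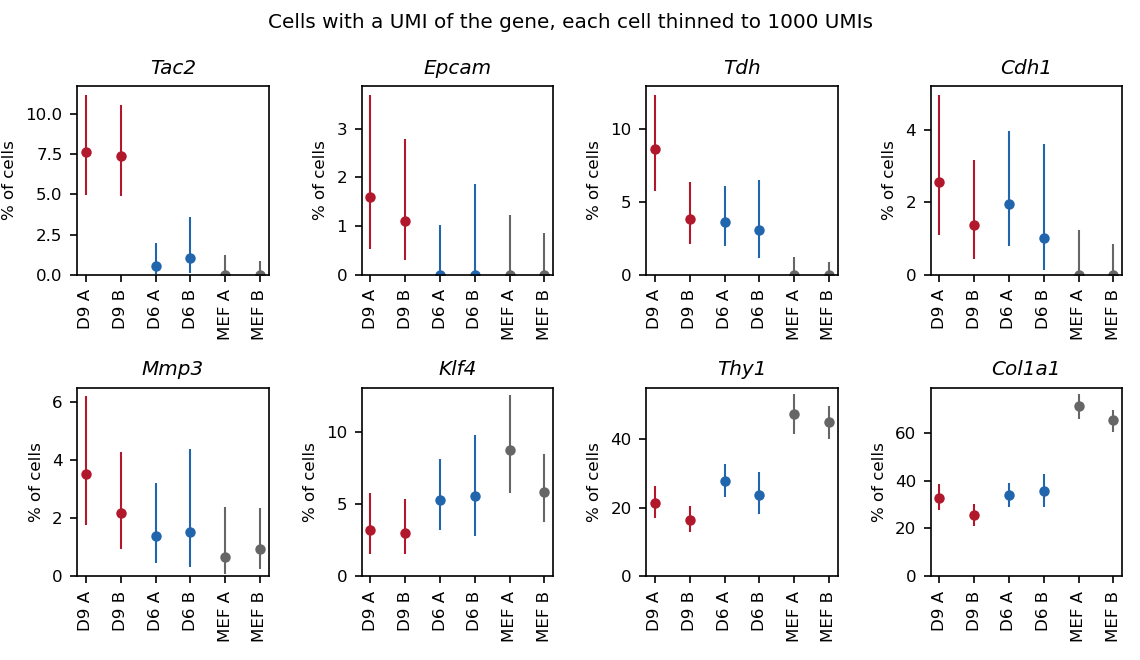
Percent of cells with at least 1 UMI of a gene after thinning each cell to 1000 UMIs, by library of day 9, day 6 and MEF, with bars for exact 95% binomial intervals. Tac2 at 7.67% and 7.4% stands above both day 6 libraries, while the intervals of Cdh1, Mmp3 and Klf4 overlap between the days.

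A few cells carried much of some genes. In the day 9 libraries the 10 top cells held 94.8% and 98.9% of the Mmp3 UMIs, 89.1% and 90% of the Epcam UMIs, 58.7% and 57.5% of the Tac2 UMIs and 31.2% and 33.3% of the Tdh UMIs. With Mmp3 in 15 and 12 cells and Epcam in 16 and 14, a high share was nearly fixed. At day 6 the shares were 98.2% and 100% for Mmp3, 100% in both libraries for Epcam and Tac2, and 42.1% and 54.7% for Tdh. Of the 16 and 14 day 9 cells with Epcam, 7 and 9 had Tac2, against 44 of 309 and 44 of 357 cells without Epcam. Cells with Epcam were deeper, with medians of 8551 and 9774.5 UMIs against 5082 and 5700, and the part of depth in these pairings was not tested. Thy1 was seen in 9 of 51 and 7 of 53 cells with Tac2, against 114 of 274 and 133 of 318 cells without it. Cells with Tac2 had medians of 6163 and 6990 UMIs against 4900.5 and 5573.5 in cells without it. No day 9 cell with Mmp3 had Tac2 or Epcam, and 10 of 15 and 7 of 12 of them had Thy1. Ribosomal protein genes took a median of 12.5% and 13.1% of a thinned cell's UMIs at day 9 against 10.6% and 10.4% at day 6. For the matrix list the median share was 1.4% and 1.1% at day 9 against 2% and 1.8% at day 6, with 90th percentiles of 6.18% and 5.8% against 5.1% and 6.34%. The epithelial list had a mean share of 0.0722% and 0.0721% at day 9 against 0.0639% and 0.0756% at day 6. The days thus overlapped in that share.

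The step between day 6 and day 9 was compared with the steps on either side in the same fit, and neighbouring steps share the libraries of a day. It differed from the step between day 3 and day 6 in 2149 genes (16.2% of those tested), more positive in 973 (7.36%) and more negative in 1176 (8.89%). It differed from the step between day 9 and day 12 in 1371 genes (10.4%), more positive in 837 (6.33%) and more negative in 534 (4.04%). On their own, the step between day 3 and day 6 had 18.8% of genes higher and 19% lower, and that between day 9 and day 12 had 6.14% higher and 6.37% lower. Tac2 had 0 and 0.313 CPM at day 3, 6.42 and 4.84 CPM at day 6, 174 and 148 CPM at day 9 and 103 and 136 CPM at day 12. Its step into day 9 exceeded the next one by 5.21 ± 0.43 on the log2 scale (adjusted p = 3.4e-08 by edgeR). Epcam had 65.8 and 38.7 CPM at day 12, and its step into day 9 exceeded the next by 2.88 ± 0.73 (adjusted p = 0.009). Nanog reached 51.4 and 84 CPM at day 12 and Esrrb 31.7 and 25.5 CPM at day 12, and for neither was the difference between steps called. Thy1 had 261 and 309 CPM at day 3, 497 and 473 CPM at day 6, 303 and 274 CPM at day 9 and 619 and 597 CPM at day 12. Its fall at day 9 thus lay between rises, and it differed from the step before by -1.52 ± 0.27 and from the step after by -1.83 ± 0.29 (adjusted p of 0.00017 and 0.00012 by edgeR). Klf4 differed from the step after by -1.42 ± 0.34. Tdh had 0.287 and 0.626 CPM at day 3, 31.8 and 33 CPM at day 6, 91.7 and 82 CPM at day 9 and 156 and 224 CPM at day 12. Its step into day 9 differed by -4.63 ± 0.93 from the step before on the log2 scale, a fitted value that is no exact size, since day 3 had 3 Tdh UMIs in all.

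**Figure D5:**
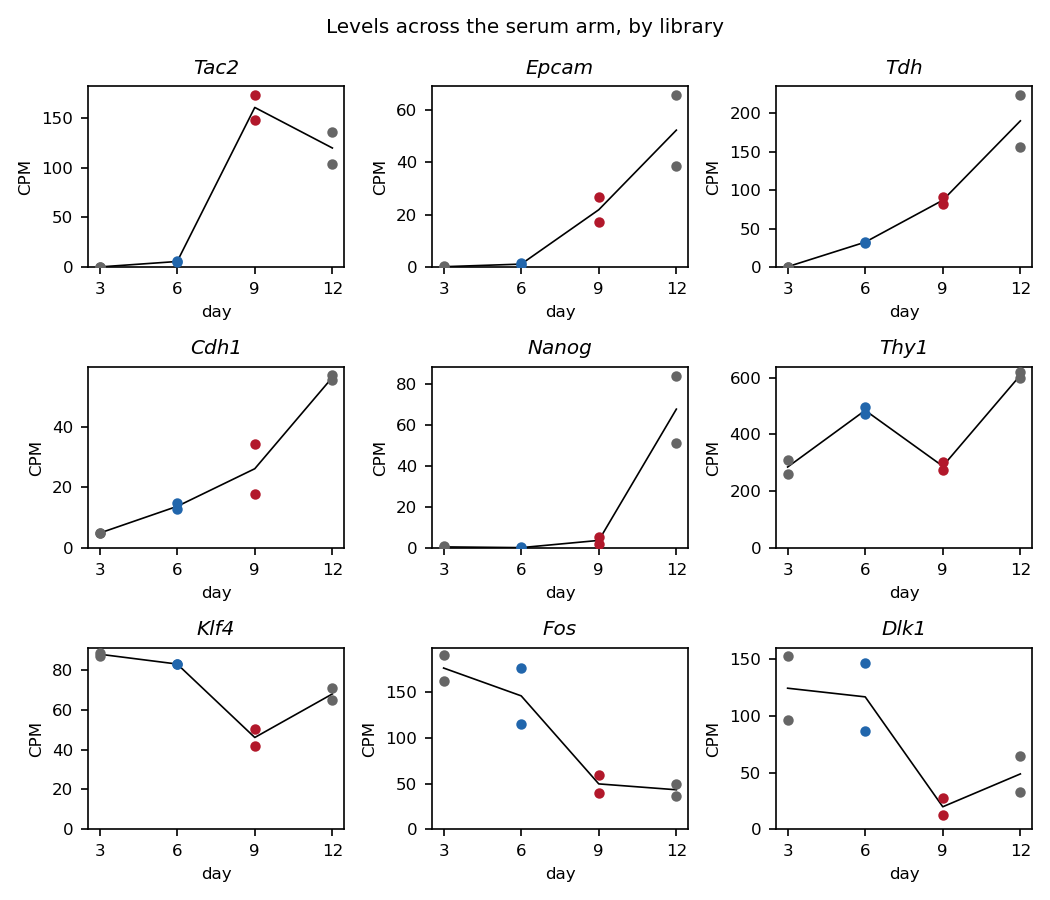
CPM of 9 genes at days 3, 6, 9 and 12 in serum medium, each point a library. Tac2 is low at day 6 (6.42 and 4.84 CPM) and high at day 9 (174 and 148 CPM), Nanog climbs after day 9, and Thy1 dips at day 9.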

How the data were processed

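RNA was measured in single cells with droplets (Bio-Rad ddSEQ) and a 3' kit, per the labels' protocols. The deposited files hold UMI counts per gene and barcode, and the submitters' processing notes name bcl2fastq 2.19, STAR and mm10. Of 8334 barcodes 684 were left out because the authors' feeder list names them under their own group; 2 columns of that list were not used. Doublets were not called. UMIs were summed per library, and the sums had 18897 genes with a UMI. All 32 libraries entered one edgeR 4.0.16 fit (R 4.3.3), with TMM factors, filterByExpr, a coefficient per group and 16 residual degrees of freedom. CPM were computed on TMM-scaled totals. Replicate depth is given in the report, and intervals cover counting error only.

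On data simulated for this comparison (13229 genes), changes were placed only in genes with a mean of at least 20 CPM over all libraries. There 53.7% of 1.5-fold, 92.8% of 2-fold and 100% of 4-fold changes were called, and 9 of 173 calls were false. Every group was drawn at a gene's mean level over all libraries, not at its level at day 9 and day 6. Recovery in genes that were far lower at those days than in ESC, such as Nanog, Sall4 and Esrrb, was therefore not measured. Nor was recovery simulated in genes under 20 CPM. The comparison, the gene lists and the panel were chosen with earlier results of these data known. The genes named are the 12 called genes with the largest log2 fold change each way among those of at least 50 CPM in the higher group without overlap of libraries (mitochondrial, ribosomal, predicted and Rik genes left out), 19 marker genes, and per list the called members of smallest p, at most 3 each way, or 2 uncalled ones where none was called; other called members are named to complete a count. Some genes that this rule chose are not reported here. Alternatives were RLE factors, no filter, DESeq2 1.42.0, a replicate block, keeping listed cells, removing cells under 1000 UMIs, fitting only the groups compared, leaving out each library, and other thinning depths. Dropping listed barcodes in every library and the length offset were added after seeing the data. Exonic lengths came from GENCODE vM21.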

Additional observations from a re-analysis of the deposited data

Results flagged for a closer look

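For 10 panel genes the log2 change between day 6 and day 9 differed, in a test of the difference itself, from the change in a neighbouring interval that shares libraries with it. Against the change between day 3 and day 6 the difference was -4.63 for Tdh, -1.52 for Thy1, -3.42 for Postn, -0.85 for Cdkn1a, 6.57 for Isg15, 1.0 for Mki67 and -7.37 for Lyz2. Against the change between day 9 and day 12 it was 2.88 for Epcam, -1.42 for Klf4, -1.83 for Thy1, 5.21 for Tac2 and -10.4 for Lyz2. The values of Tdh, Thy1, Cdkn1a and Tac2 stayed past the threshold in all settings tried. Lyz2 rests on few cells. In the day 6 library B 147 of its 150 UMIs lay in 1 cell, and without that whole library its first difference was 0.26. In the day 12 library B all 212 Lyz2 UMIs lay in 1 cell, against 5 UMIs in the day 12 library A, which bears on the second difference. The first difference was also lost with the listed cells kept, and the second one without either day 9 library and without the day 6 library B. Postn was lost by DESeq2, with the listed feeder cells kept and without the day 6 library A. Isg15 and Mki67 were lost with the listed cells kept and without either day 6 library, Isg15 also without the day 9 library B. Epcam was lost without the day 9 library A and Klf4 without B.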

How the results depend on the processing

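Of 114 called genes that the rule for named genes chose, 52 kept their call in every alternative that tested them. Some alternatives, such as the fit of the compared groups alone, did not test every named gene. DESeq2 called 406 genes higher and 407 lower. With the replicate block, whose pairing the data do not bear out (the A minus B differences of the days correlated at 0.011), 626 genes were higher and 577 lower. With a library left out, 229 to 341 were higher and 282 to 331 lower, with fewer libraries in the fit. Genes whose change between day 6 and day 9 differed from the step before were then 375 to 759 (more positive) and 630 to 1021 (more negative), and 524 were more positive with the listed cells kept; against the step after they were 366 to 655 and 195 to 412. Signs turned for Mmp3 with the listed cells kept (-0.040), and when a library was left out the log2 fold change ran from -0.27 to 0.88 for Postn and -0.72 to 1.57 for Isg15. Differences to the step after day 9 turned for Nanog (0.15 by DESeq2, 0.12 with listed cells kept), Esrrb (-0.019 by DESeq2) and Mmp3 (-1.42 with listed cells kept). With a library left out they ran from -1.60 to 2.37 for Nanog, -2.47 to 2.43 for Sall4, -0.10 to 1.49 for Esrrb, -1.29 to 0.58 for Cdh1, -1.48 to 0.81 for Postn, -0.61 to 3.97 for Isg15 and -0.039 to 1.25 for Mmp3. Differences to the step before day 6 ran from -3.67 to 6.15 for Sall4, -0.47 to 0.34 for Tac2 (0.10 with listed barcodes dropped in every library) and -9.47 to 0.26 for Lyz2. Day 6 had 1 Nanog UMI, 4 Sall4 UMIs and no Esrrb UMI in all, so the values of these genes here are fitted and no exact sizes. The causes of the sign turns and ranges were not tested. Depth limits genes of few UMIs, and the lower depth of day 9 cells limits shares of cells.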
